A study of Mus musculus with 20 samples.

Results

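The comparison described here is the difference between the refeeding response of Prox1 K556R livers and that of wild-type livers, taken over all 20 of the 20 liver RNA samples. For each gene it is the refed minus fasted change in K556R livers minus the same change in wild-type livers, on the log2 scale, and it is called the interaction below. A negative value means that a rise on refeeding was smaller in K556R (blunted) or that a fall was larger (enlarged), and a positive value means the reverse.

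The mice were male, were fed chow and were kept in 12 h of light and 12 h of dark. Cre recombination at 8 weeks of age switched on the K556R form of Prox1 in the liver, and tissue was taken 11 weeks later at Zeitgeber times 15 to 17, the early dark phase. The groups were wild type fasted, wild type refed, K556R fasted and K556R refed, with 5 libraries each, and the titles call the genotypes Ctrl and Cre, so effects of Cre and of K556R cannot be told apart. The promoter driving Cre, the length of the fast and of the refeeding, and the way samples relate to mice are not stated in the labels, and p-values therefore measure only the spread between these samples. Batch 1 gave 4 libraries to each group except K556R refed, to which it gave 2, and batch 2 gave 3 libraries to K556R refed and 1 to each of the others. Libraries are named by replicate and batch, such as 1_b1.

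Prox1, a homeodomain protein, works in hepatocytes largely as a corepressor of metabolic genes, and K556 is a lysine to which the small protein SUMO can be attached. When a fasted animal eats, insulin and incoming sugar switch the liver from making glucose and burning fat to storing carbohydrate as glycogen and fat. Insulin acts on lipid synthesis mainly through the factor SREBP1c, and sugar acts through ChREBP, which binds a pair of short sites called the carbohydrate response element. Sterol synthesis is run by SREBP2, and the fasting genes for fat burning by PPARα.

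Total counts ranged from 33746054 to 50647297 per library over 29915 genes, of which 13894 passed the low-count filter and were tested. The first principal component (49.2% of the variance) separated fasted from refed libraries, at −45.7 to −14.4 and 26.9 to 38.0. The second (12.1%) set apart K556R fasted 1_b1 (−39.5) and K556R refed 1_b1 (−57.3) from the other 18 libraries (−8.06 to 10.7), so values without these libraries are given beside the results they change. The liver label was not contradicted by albumin, at 73182 to 105640 CPM (counts scaled to a common total), while Lep of fat, Ckm of muscle and Prss2, Cpa1, Pnlip and Amy2a5 of exocrine pancreas were at 0 in all 20 libraries. Levels below are in CPM of TMM-scaled library sizes.

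Prox1, the targeted gene, fell on refeeding in both genotypes. Its levels in wild-type libraries were 186, 223, 121, 203 and 190.5 CPM fasted and 97.4, 93.3, 113, 114 and 133 CPM refed. In K556R libraries they were 85.0, 94.0, 126, 109 and 108 CPM fasted and 80.8, 57.7, 79.5, 70.1 and 89.4 CPM refed. Each refed K556R library lay below each refed wild-type library. The fasted ranges overlapped, with wild type down to 121 CPM and K556R up to 126 CPM. In neither feeding state did edgeR call any gene between the genotypes, Prox1 included. Any part of the Prox1 RNA level in the values below was not tested. The fall was 0.75 in wild type and 0.54 in K556R as a log2 change, and the interaction was 0.21 (SE 0.21, 95% interval −0.22 to 0.64). Gene counts are blind to the changed codon itself.

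edgeR called no gene as differing in refeeding response between the genotypes, which does not show that the responses were equal. Its quasi-likelihood test called 0 of 13894 genes in the interaction (0%, adjusted p under 0.05), the lowest adjusted p was 1 when rounded, and 553 genes (3.98%) had an unadjusted p under 0.05, where 5% would be drawn from uniform p-values. DESeq2 called 1 gene of 13886 (0.0072%), Dak, with 558 at an unadjusted p under 0.05, and limma with sample quality weights called 0, with 431. Refeeding itself was called in 6263 genes in wild type (45.1%), of which 2904 rose (20.9%) and 3359 fell (24.2%). In K556R it was called in 5543 genes (39.9%), of which 2728 rose (19.6%) and 2815 fell (20.3%). Differences between the genotypes in the number of list members called, given below, were not tested. The genotypes did not differ past the test in either feeding state, with 0 genes called and 1136 at an unadjusted p under 0.05 in fasted livers and 0 and 693 in refed livers (edgeR).

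The data bounded the interaction of most genes only loosely. The 95% interval lay within a 2-fold difference in either direction for 11169 of the 13894 genes tested (80.4%). It did so for 6715 of the 7743 genes called in the mean of both refeeding responses (86.7%). That limit, 1 on the log2 scale, is wide beside the responses themselves. The median absolute wild-type response was 0.28 over all genes tested and 0.44 over the called genes. An interval within the limit can still hold the loss of a response of that size. Over all 13894 genes the K556R response correlated with the wild-type response with Pearson's r = 0.875 and Spearman's rho = 0.843, and 11822 genes had the same sign. The regression slope was 0.845 of K556R on wild type and 0.906 of wild type on K556R. These figures are across genes, which share libraries and are not independent replicates. The wild-type response was the larger one in 4541 of the 7743 called genes (58.6%), in 51.8% of those that rose and in 65.2% of those that fell. Over all 13894 genes these shares were 55.1%, 49.9% and 60.3%. In batch 1 alone they were 54.9%, 51.4% and 58.3% for the called genes. Among the 969 called genes with a mean response of at least 2-fold the wild-type response was larger in 542 (55.9%), and without the batch term in 49.0%.

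**Figure D1:**
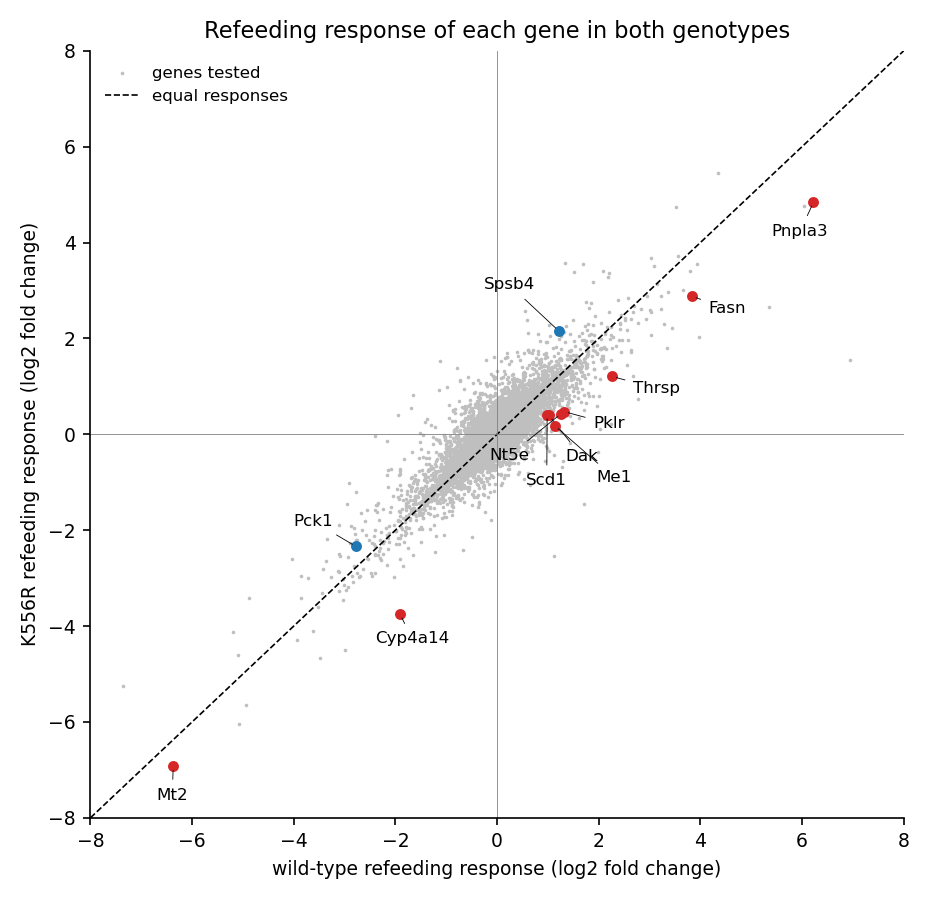
Refeeding response (log2 fold change, refed minus fasted) of each of the 13894 genes tested, with wild type on the x axis and K556R on the y axis; the dashed line marks equal responses, and named genes are red where the interaction was below 0 and blue where it was above 0. Most genes lie along the dashed line, and Pklr, Me1, Thrsp, Fasn and Cyp4a14 lie below it.

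None of the 10 genes with the lowest p among negative interactions passed edgeR's adjusted test. Among them 5 serve sugar use or fat synthesis and rose on refeeding in wild type (Dak, Pklr, Me1, Scd1 and Thrsp). The share of such genes over all genes was not counted. K556R refed 1_b1 was the lowest refed library for Dak, Pklr, Me1 and Thrsp, so these are not independent. Over all genes tested, 371 interactions above 0 and 182 below had an unadjusted edgeR p under 0.05. Pklr encodes the liver pyruvate kinase, the last step of glycolysis and a classical ChREBP target, and Khk encodes ketohexokinase, the first enzyme of fructose use. A stretch of each promoter is shown, for Pklr because it holds a pair of sites of the carbohydrate response type and for Khk because it holds a single E-box, printed 5′ to 3′ with the motif in capitals, from RefSeq on GRCm38.p6; Khk was picked for this after its values were seen.
Pklr: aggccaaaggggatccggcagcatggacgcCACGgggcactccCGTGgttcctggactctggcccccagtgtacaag
Khk: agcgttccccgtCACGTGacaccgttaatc
The Pklr stretch is chr3:89136423-89136499 on the plus strand, 200 to 124 bases before the RefSeq gene start and in introns of 2 longer GENCODE transcripts, and its capitals are the sites CACG and CGTG with 9 bases between them. The Khk stretch is chr5:30921476-30921505 on the plus strand, 83 to 54 bases before the gene start and inside the first exon of 1 GENCODE transcript, and its capitals are the E-box CACGTG, which reads the same on both strands. In the 250 bases before the gene start, the CACG and CGTG pair was found in 72 of 32851 RefSeq promoters (0.219%) and the E-box in 1978 (6.02%). Another motif, TCACNCCAC on either strand for sterol response elements, was found in 346 promoters (1.05%). Among the glycolysis genes with a RefSeq promoter (14 of 16), 1 held this pair (Pklr) and 1 an E-box (Khk). Of the fatty acid synthesis genes (16 of 18 with a promoter), 3 held an E-box and 1 the sterol motif, and of the sterol genes (15 of 23) 4 and 1. The 20 genes with the lowest p were scanned too, and 14 had a promoter. Those of Dak, Me1 and Thrsp held none of these motifs, and Scd1 had no promoter to scan. Besides the Pklr pair, the only match was an E-box in Dleu2, whose interaction was above 0. A match describes the letters only.

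Dak encodes the kinase that feeds fructose-derived glyceraldehyde into glycolysis; its current symbol is Tkfc, and it lies on chromosome 19 at 10587791 to 10605654 of GRCm38. Wild-type livers had 339.9, 359, 287, 342 and 415 CPM fasted and 651, 612, 650.3, 739.5 and 879 CPM refed. K556R livers had 374, 392, 363, 399 and 557 CPM fasted and 415, 548, 638, 834 and 730.3 CPM refed. The wild-type groups did not overlap, and within each batch the K556R refed libraries also lay above the fasted ones (415 and 548 CPM against 363 to 399 in batch 1, and 638 to 834 against 557 in batch 2). Its log2 rise was 1.01 in wild type and 0.40 in K556R, with an interaction of −0.62 (SE 0.13, 95% interval −0.89 to −0.34, unadjusted p = 0.000135, edgeR adjusted p = 1). DESeq2 gave −0.63 with an adjusted p of 0.0366.

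Pklr lies on chromosome 3 at 89136142 to 89146784. Levels in wild type were 267, 274, 208, 284 and 347 CPM fasted and 704, 539.9, 584, 745 and 876 CPM refed. Levels in K556R were 241, 331, 227, 304 and 462 CPM fasted and 247, 425, 618, 746 and 669.8 CPM refed. Both K556R refed libraries of batch 1 lay below the wild-type refed ones of that batch, and the 3 of batch 2 lay below the wild-type refed library of batch 2. The rise was 1.32 in wild type and 0.47 in K556R (interaction −0.85, SE 0.22, 95% interval −1.31 to −0.38). Khk, with a rise of 0.60 in wild type and 0.10 in K556R, had an interaction of −0.50 (SE 0.23). Its lowest library of all 20 was K556R refed 1_b1 at 209.7 CPM, without which the value was −0.30.

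The list of glycolysis and glucose use genes had no member called by edgeR, against 0% of all genes tested, and 1 called by DESeq2, Dak. Its median interaction was −0.26, against 0.019 over all genes tested. Of its 16 members 15 were below 0, 6 of them at an unadjusted p under 0.05 (edgeR). Over all 13894 genes tested, 6222 were below 0, 182 of them at such a p, and 7672 were above 0, 371 of them at such a p. These counts over all genes also stand beside the lists below. On refeeding, 13 of the 16 rose in wild type, against 20.9% of all genes, and in K556R 7 rose, against 19.6%, and 1 fell. Pgd of the pentose phosphate path had an interaction of −0.34 (SE 0.13; response 1.34 in wild type and 1.00 in K556R). Mlxipl, which encodes ChREBP, was looked at after the values were seen, and its interaction was −0.06 (SE 0.30). The list's median was −0.18 without the 2 set-apart libraries, −0.15 without K556R refed 1_b1 alone, −0.29 in batch 1 alone and −0.16 without the batch term.

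Me1, which encodes the malic enzyme that supplies NADPH for fat synthesis, rose in wild type and was not called in K556R. In wild type the libraries had 187, 127, 161, 184 and 256 CPM fasted and 263, 366, 372, 497 and 484 CPM refed. The K556R libraries had 185, 248, 178, 167 and 321 CPM fasted and 152, 199, 387, 520.2 and 385 CPM refed. Wild-type refed libraries all lay above the fasted ones. In K556R the refed libraries of batch 1 overlapped the fasted ones of that batch, and those of batch 2 lay above the fasted one. The response was 1.14 in wild type and 0.17 in K556R (interaction −0.97, SE 0.27, 95% interval −1.53 to −0.40), and the gene is on chromosome 9 at 86581371 to 86695953.

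Thrsp, on chromosome 7 at 97412938 to 97417730, encodes Spot 14, a nuclear protein that accompanies lipogenesis. Its wild-type levels were 256, 255, 229.6, 317 and 496 CPM fasted and 1294, 1373, 1258, 1436 and 1889.5 CPM refed. In K556R they were 227, 231, 395, 324 and 510.5 CPM fasted and 285, 876, 1373, 1555 and 1154 CPM refed. K556R refed 1_b1 stayed within the fasted range, and the other 4 K556R refed libraries lay above it. The rise was 2.27 in wild type and 1.21 in K556R, and the interaction was −1.06 (SE 0.33, 95% interval −1.76 to −0.36).

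Scd1 encodes the desaturase that makes monounsaturated fatty acids and lies on chromosome 19 at 44394455 to 44407879. Wild-type livers had 6708, 6521, 6594, 5411 and 11792 CPM fasted and 11061, 13119, 13308, 16079 and 17312 CPM refed. K556R livers had 8277, 9723, 7677, 8673 and 16916 CPM fasted and 12043, 12274, 21278, 20170.0 and 16635 CPM refed. The batch 2 library was the highest fasted library in each genotype, and the batch 2 libraries were also the highest among the refed ones. The rise was 0.98 in wild type and 0.41 in K556R (interaction −0.57, SE 0.17).

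Fatty acid synthesis genes as a list had the most negative median of the metabolic lists described, −0.53, with 16 of 18 members below 0 and 8 at an unadjusted p under 0.05; none was called. The median rise was 1.50 in wild type and 1.07 in K556R, and 16 members rose in wild type and 12 in K556R, against 20.9% and 19.6% of all genes; 1 fell in each. Fasn, the fatty acid synthase, went from 154, 125, 107, 108 and 266 CPM to 1394, 1839, 1736, 2572 and 2859.6 CPM in wild type. In K556R it went from 185, 138, 168, 234 and 261 CPM to 551, 1609, 2782, 3164 and 2055 CPM, so that only K556R refed 1_b1 lay below the wild-type refed range. Its interaction was −0.96 (SE 0.37), and that of Acaca, the acetyl-CoA carboxylase of the same pathway, was −0.54 (SE 0.19). Srebf1, which encodes SREBP1, rose by 2.45 in wild type and 2.48 in K556R, with an interaction of 0.04 (SE 0.27, 95% interval −0.53 to 0.60).

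The size of these lipogenic interactions depended on the treatment of batch. Batch 2 libraries were high for these genes, and 3 of the 6 were K556R refed. Without the batch term the interaction was −0.53 for Pklr, −0.54 for Me1, −0.25 for Scd1, −0.59 for Thrsp and −0.41 for Fasn, and the list's median was −0.21. In batch 1 alone, where K556R refed had 2 libraries of which 1 is set apart, they were −1.03, −1.33, −0.59, −1.36 and −1.36. In batch 2 alone, where the spread comes from the K556R refed libraries only, they were −0.78, −0.50, −0.36, −0.52 and −0.08, with a list median of 0.07. With the batch term and without the 2 set-apart libraries they were −0.70, −0.80, −0.60, −0.83 and −0.64, with a list median of −0.45.

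**Figure D2:**
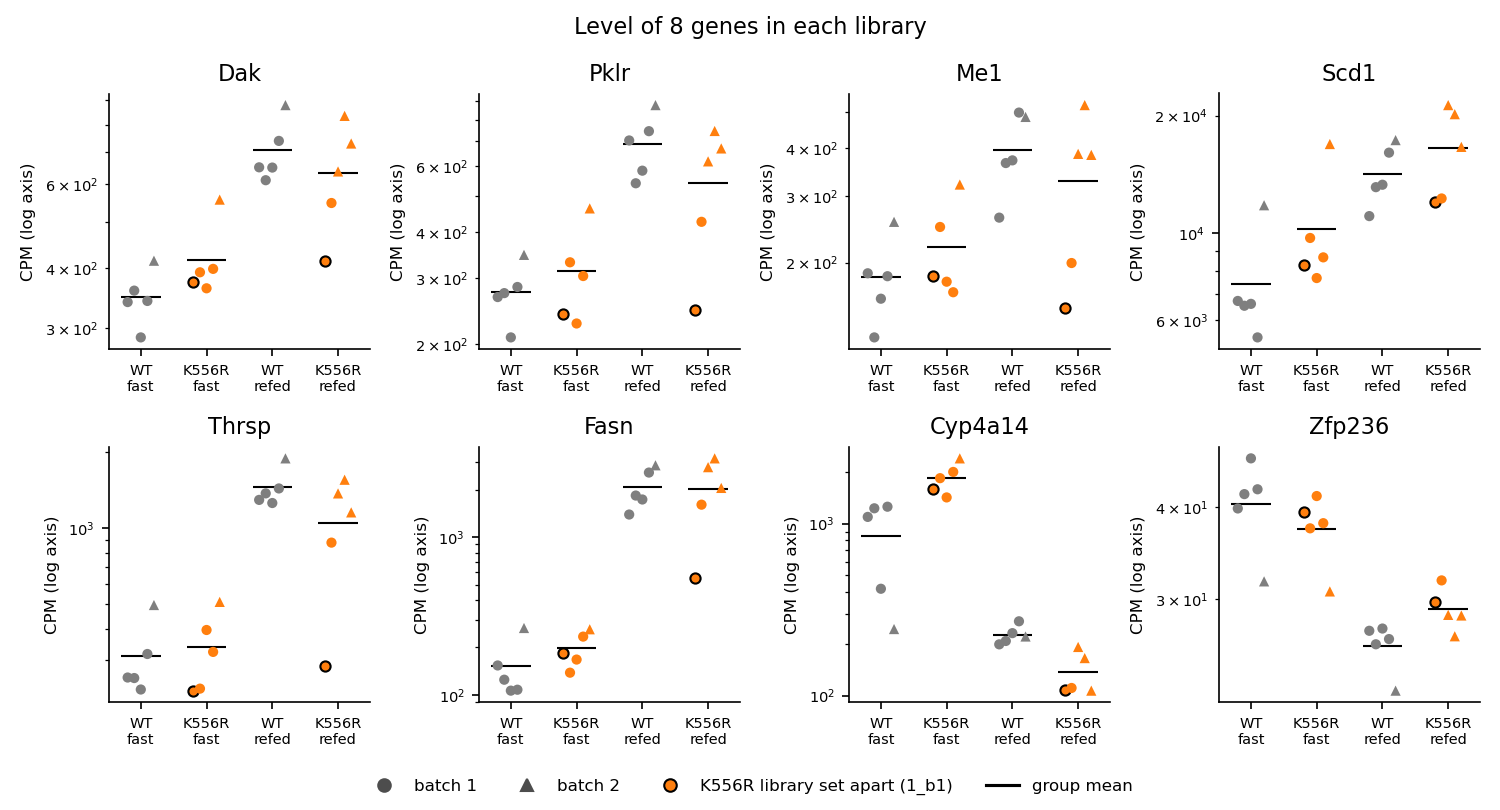
Level (CPM, log axis) of 8 genes in each of the 20 libraries, by group, with circles for batch 1, triangles for batch 2, black outlines for the 2 set-apart K556R libraries and bars for group means, which are not adjusted for batch. K556R refed 1_b1 is the lowest refed library for Dak, Pklr, Me1, Thrsp and Fasn, and batch 2 libraries lie high for the sugar and fat synthesis genes.

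Sterol synthesis genes rose on refeeding in both genotypes, 22 of 23 in wild type and 20 in K556R, against 20.9% and 19.6% of all genes. Median rises were 1.63 and 1.39. The median interaction was −0.22, with 21 of 23 below 0 and none called, and it was −0.06 without the 2 set-apart libraries, −0.48 in batch 1 alone, 0.48 in batch 2 alone and −0.39 without wild type refed 1_b2. Fdps, the farnesyl diphosphate synthase, had an interaction of −0.60 (SE 0.27), and Hsd17b7, a sterol reductase, one of −0.38 (SE 0.23).

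The genes with the largest rises were picked by the mean of both refeeding responses. A shared direction in both genotypes was therefore close to fixed by the choice. Among the 8 largest rises were those of Pnpla3, Mvd, Fasn, Aqp8, Chrna4, Mid1ip1 and Sqle, each called in each genotype. Pnpla3, a lipid droplet protein, rose by 6.22 in wild type and 4.84 in K556R (interaction −1.38, SE 0.96), and Mvd of sterol synthesis by 3.93 and 3.55 (−0.38, SE 0.42). Interactions were −0.40 for the water channel gene Aqp8 (SE 0.60) and −0.98 for the receptor subunit gene Chrna4 (SE 0.76). They were −0.48 for Mid1ip1, a partner of Spot 14 (SE 0.26), and −0.52 for Sqle, the squalene epoxidase (SE 0.36). These 7 interactions were below 0. Without K556R refed 1_b1 that of Mvd was −0.009 and that of Aqp8 −0.07, and in batch 2 alone those of Mvd, Aqp8, Chrna4, Mid1ip1 and Sqle were above 0. Several of the genes share SREBP control, so they are not independent of the lists above.

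The 8 largest falls, picked in the same way, were those of Mt2, Ppp1r3g, Fam107a, Mt1, Rgs16, Gadd45g, Btbd19 and Plin4, each called in each genotype. The metallothionein genes Mt2 and Mt1 fell by 6.37 and 4.93 in wild type and by 6.93 and 5.66 in K556R. Their interactions were −0.55 (SE 0.91) and −0.72 (SE 0.70). Ppp1r3g, a glycogen-targeting phosphatase subunit, had an interaction of 2.12 (SE 1.53), Fam107a one of −0.97 (SE 1.11) and Rgs16, a regulator of G protein signalling, one of −0.50 (SE 1.20). Gadd45g, Btbd19 and Plin4 had −0.08 (SE 0.82), 0.90 (SE 1.02) and 0.13 (SE 0.53). The standard errors of these 8 genes were several times the median over all genes tested, 0.169.

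Cyp4a14 had the most negative interaction of the 20 genes with the lowest p, and its genotypes did not overlap in either feeding state. The gene was picked for its low interaction p in the same libraries, so the lack of overlap is no separate support. It encodes a fatty acid ω-hydroxylase and is a sensitive PPARα target, on chromosome 4 at 115486200 to 115496142. Levels in wild type were 1095, 1229, 418, 1255 and 244 CPM fasted and 199, 208, 231, 270.4 and 221 CPM refed. Levels in K556R were 1587, 1839.5, 1421, 1999.8 and 2399 CPM fasted and 108, 111, 192, 165 and 107 CPM refed. Each fasted K556R library lay above each fasted wild-type library, and each refed K556R library lay below each refed wild-type library. The fall was 1.91 in wild type and 3.75 in K556R on the log2 scale (interaction −1.85, SE 0.50, 95% interval −2.91 to −0.78, edgeR unadjusted p = 0.00193, adjusted p = 1). The interaction was −1.85 without the batch term, −1.78 without the set-apart libraries, −1.83 in batch 1 and −3.81 in batch 2. In batch 2 wild type fasted was 1 library, at 244 CPM. Cyp4a14 shares sequence with Cyp4a10 and other family members, and how shared reads were counted is not given in the sources used here.

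Other PPARα targets and fatty acid oxidation genes had smaller values. The median interaction of the 30 genes was −0.16, with 26 below 0 and none called, and −0.03 without the set-apart libraries, −0.28 in batch 1 alone and −0.24 without wild type fasted 4_b1. On refeeding 24 fell in each genotype, against 24.2% of all genes in wild type and 20.3% in K556R. Cyp4a10 had an interaction of −0.85 (SE 0.33), and the acyl-CoA thioesterase genes Acot3 and Acot4 had −0.92 (SE 0.46) and −0.43 (SE 0.22). Triglyceride assembly and lipid droplet genes had a median of −0.20, with 15 of 17 below 0. It was −0.10 without the set-apart libraries, −0.05 without K556R refed 1_b1 alone and −0.33 in batch 1 alone, and −0.34 without wild type refed 1_b2. Mogat1, a monoacylglycerol acyltransferase, had −1.21 (SE 0.65), the lipase gene Mgll −0.37 (SE 0.19), Agpat2 −0.19 (SE 0.13) and the droplet coat gene Plin5 −0.43 (SE 0.31).

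The fasting genes that insulin represses had interactions mostly above 0, none of them called. Pck1, the gluconeogenic carboxykinase, fell by 2.78 in wild type and 2.34 in K556R (interaction 0.44, SE 0.44, or 0.04 without K556R refed 3_b2), and Igfbp1, an insulin-repressed secreted protein, by 3.72 and 3.00 (0.72, SE 0.72). Of 12 insulin-repressed genes, 11 fell in wild type and 10 in K556R, against 24.2% and 20.3% of all genes. Of their interactions 11 were above 0, with a median of 0.26. The median was 0.17 without the batch term, −0.14 in batch 2 alone and 0.15 without wild type fasted 4_b1. Irs1, an insulin receptor substrate, had 0.31 (SE 0.14), Irs2 had 0.74 (SE 0.54), and the transcription factor genes Foxo1 and Klf15 had 0.20 (SE 0.15) and 0.23 (SE 0.21). Gluconeogenesis genes had a median of −0.05, with Slc37a4, a transporter that gluconeogenesis needs, at −0.24 (SE 0.15) and Fbp1 at −0.12 (SE 0.09). Mdh1 and the transaminase gene Gpt2 were at −0.12 (SE 0.09) and −0.22 (SE 0.19).

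Bile acid, lipoprotein and clock genes had medians near 0. Cyp7a1, the rate-limiting enzyme of bile acid synthesis, rose by 1.40 in wild type and 1.28 in K556R (interaction −0.12, SE 0.63). That value leaned on the set-apart libraries. It was −0.76 without K556R refed 1_b1, which had 309.6 CPM against 98.5 to 143 CPM in the rest of its group. Without K556R fasted 1_b1 it was 0.16. The bile acid list's median was −0.01. Abcg8 and Abcg5, which together form the sterol exporter, had 0.63 (SE 0.21) and 0.36 (SE 0.20), the uptake transporter Slc10a1 −0.40 (SE 0.15) and Cyp7b1 0.89 (SE 0.42). The lipoprotein list had a median of −0.12, with the cholesterol exporter Abca1 at 0.39 (SE 0.13), Apoa4 at −0.84 (SE 0.38), the HDL receptor Scarb1 at 0.33 (SE 0.15) and Pltp at −0.75 (SE 0.36). Clock genes had a median of 0.04, with Arntl, which encodes BMAL1, at −0.44 (SE 0.26) and its repressor gene Per2 at 0.23 (SE 0.17). The outputs Dbp and Usp2 were at 0.52 (SE 0.38) and −0.15 (SE 0.16).

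**Figure D3:**
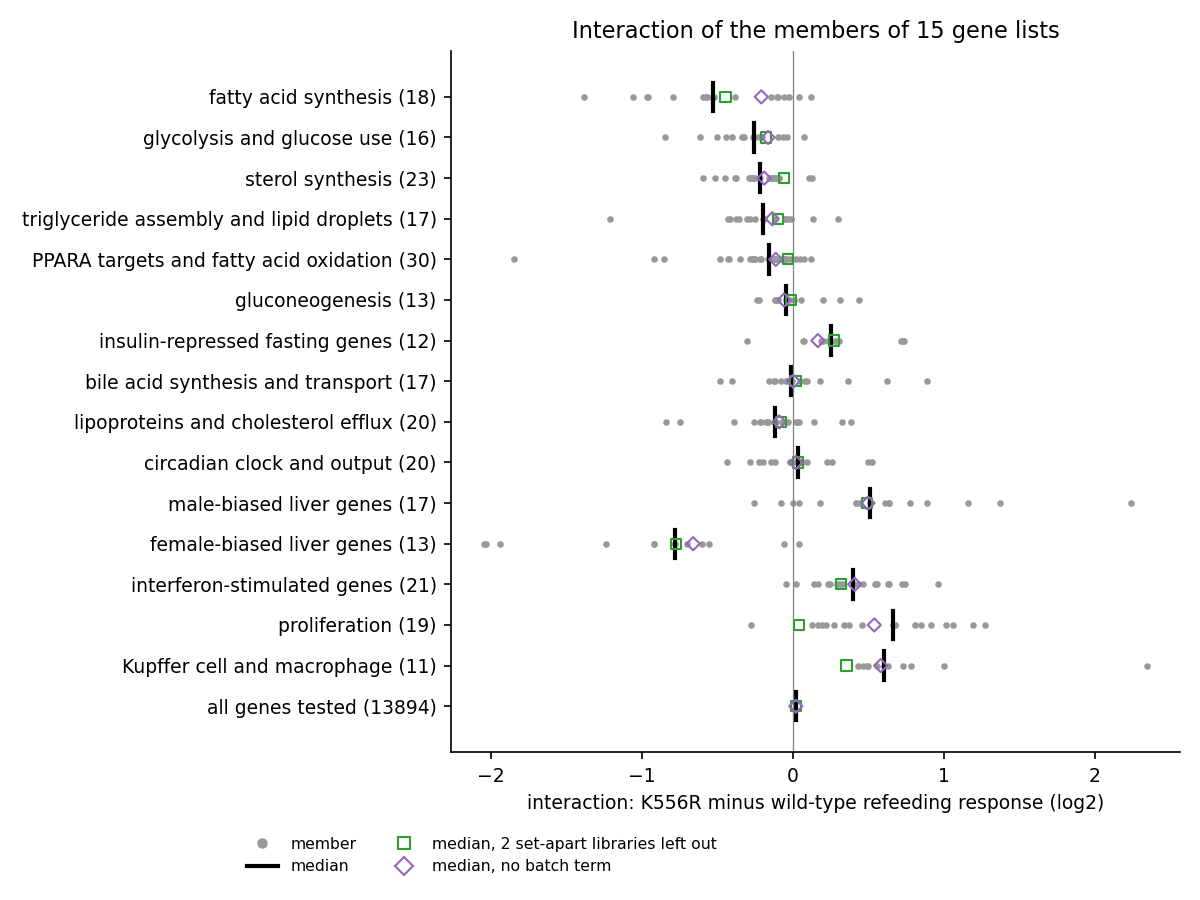
Interaction (log2, x axis) of the tested members of 15 gene lists, with the number tested in brackets; grey points are members, black bars medians, green squares medians without the 2 set-apart libraries and purple diamonds medians without the batch term. The fatty acid synthesis and female-biased medians lie lowest, at −0.53 and −0.78, and the proliferation median moves from 0.67 to 0.04 without the set-apart libraries.

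Sex-biased liver genes, which growth hormone pulses acting through STAT5 keep at different levels in males and females, lay on opposite sides of 0. Of 13 tested female-biased genes, 12 were below 0 with a median of −0.78, and of 17 male-biased genes 14 were above 0 with a median of 0.51. No member was called, and 1 female-biased and 5 male-biased genes had an unadjusted p under 0.05. Seen as the genotype difference, K556R minus wild type, the female-biased median was 0.86 in fasted and −0.04 in refed livers, and the male-biased median −0.36 and 0.05. These medians kept their side of 0 without the set-apart libraries (−0.78 and 0.49) and without the batch term (−0.66 and 0.50). C8a and C6, complement components, had 0.45 (SE 0.14) and 0.64 (SE 0.23), Selenbp2, a selenium-binding protein, had 2.24 (SE 0.82), and the urinary protein gene Mup20 had 0.64 (SE 0.28). Tox, Fmo2 and Cyp2b13 had −0.78 (SE 0.32), −0.60 (SE 0.29) and −2.03 (SE 1.19), and Acot3 is given above. The Mup and Cyp2b families share sequence, so their values are uncertain, and the STAT5 axis list had a median of 0.09.

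Nt5e, which encodes the ecto-nucleotidase CD73 that makes adenosine, lay higher in each fasted K556R library than in any fasted wild-type library. It too was picked for its low interaction p in the same libraries. In wild type the libraries had 6.42, 4.98, 4.20, 5.45 and 5.62 CPM fasted and 10.7, 11.7, 13.0, 16.5 and 11.6 CPM refed. The K556R libraries had 10.4, 10.2, 7.25, 7.59 and 13.0 CPM fasted and 15.3, 10.6, 15.1, 14.8 and 11.6 CPM refed. The refed groups overlapped. The rise was 1.25 in wild type and 0.42 in K556R (interaction −0.83, SE 0.23), on chromosome 9 at 88327197 to 88372092. The remaining genes of the 10 with the lowest p below 0 were Ppapdc1b at −0.44 (SE 0.13), the cytokine gene Ctf1 at −0.50 (SE 0.15) and Htatip2 at −0.48 (SE 0.15).

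Among positive interactions the lowest p was that of Zfp236, a zinc finger gene on chromosome 18 at 82593593 to 82692883. Its wild-type levels were 39.9, 41.7, 46.7, 42.3 and 31.7 CPM fasted and 27.2, 26.0, 27.4, 26.5 and 22.5 CPM refed. In K556R they were 39.4, 37.5, 41.5, 38.1 and 30.7 CPM fasted and 29.7, 31.8, 28.6, 26.7 and 28.5 CPM refed. Fasted levels overlapped between the genotypes, and refed levels did so in part. It fell by 0.64 in wild type and 0.25 in K556R (interaction 0.39, SE 0.08, 95% interval 0.21 to 0.56, edgeR unadjusted p = 0.000185, adjusted p = 1).

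Spsb4, a substrate adaptor of ubiquitin ligases on chromosome 9 at 96943482 to 97018843, had the largest positive value of these 10 genes. Wild-type livers had 0.839, 1.43, 1.71, 1.31 and 1.33 CPM fasted and 2.60, 4.11, 2.79, 3.54 and 2.39 CPM refed. K556R livers had 0.965, 0.810, 1.03, 1.31 and 0.628 CPM fasted and 4.62, 4.41, 3.23, 3.29 and 3.58 CPM refed. Both genotypes rose without overlap, by 1.21 and 2.16, and the interaction was 0.95 (SE 0.26). The other genes were the kinase gene Lyn (0.27, SE 0.07), Bdp1 of RNA polymerase III initiation (0.42, SE 0.11) and the apoptosis gene Bid (0.37, SE 0.10). Ttc7 (0.40, SE 0.11), the deacetylase gene Hdac11 (0.45, SE 0.13) and the noncoding RNA gene Dleu2 (0.66, SE 0.20) completed them with Mx2 and Irf5. The refed ranges of the genotypes overlapped for each of these 10 genes.

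**Figure D4:**
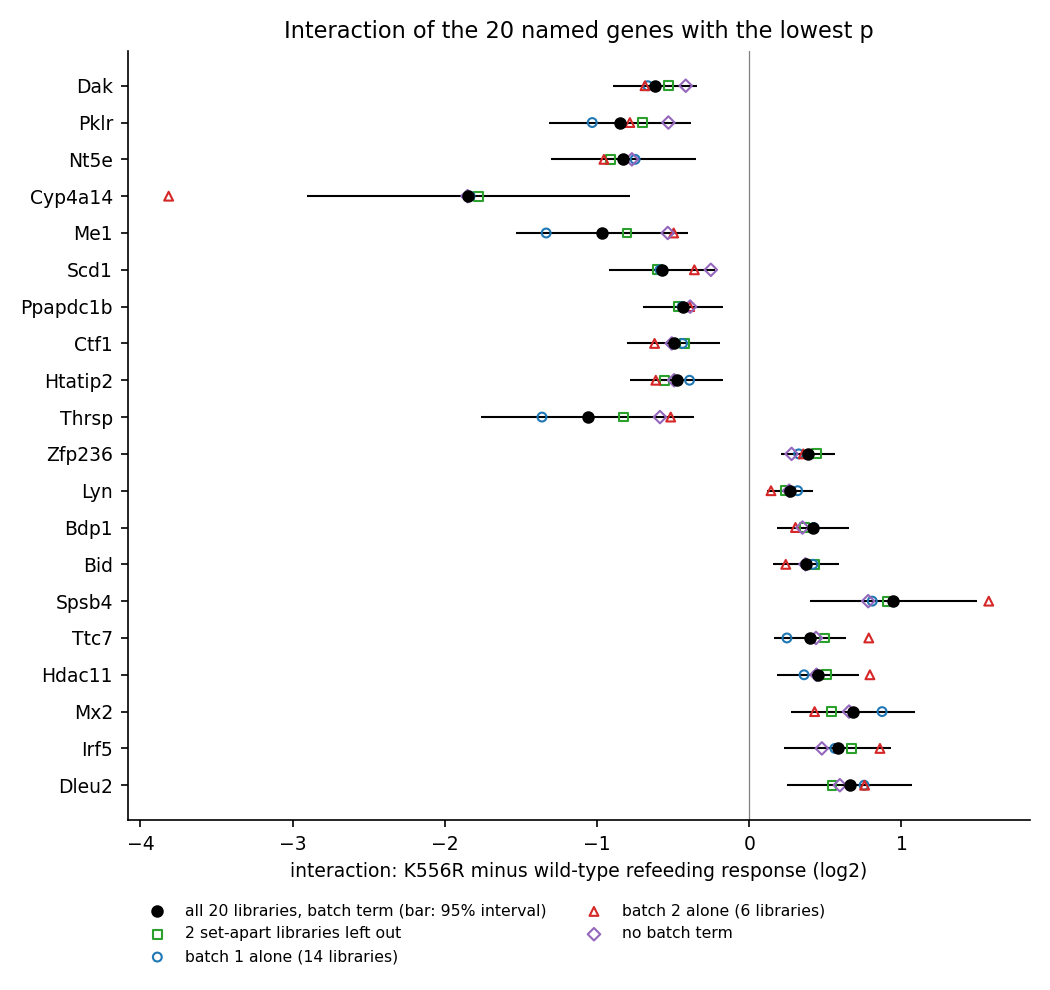
Interaction (log2, x axis) of the 20 genes with the lowest p, 10 on either side of 0; black points with bars are the fit of all 20 libraries with its 95% interval, and open symbols are the same fit without the 2 set-apart libraries, in batch 1 alone, in batch 2 alone and without the batch term. Each gene keeps its side of 0 in the 5 fits, and Pklr, Me1, Scd1 and Thrsp lie nearer to 0 without the batch term.

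Interferon genes had interactions mostly above 0, none of which passed the test. Mx2, an antiviral GTPase, had wild-type levels of 2.69, 3.55, 3.21, 3.28 and 3.29 CPM fasted and 4.53, 3.71, 4.65, 4.95 and 5.18 CPM refed. Its K556R levels were 2.87, 2.65, 2.84, 2.20 and 2.51 CPM fasted and 7.94, 5.60, 5.53, 4.47 and 6.01 CPM refed. The highest value was that of K556R refed 1_b1, and the interaction was 0.68 (SE 0.19), or 0.54 without the set-apart libraries. Irf5, an interferon regulatory factor, had 0.58 (SE 0.17). Of 21 interferon-stimulated genes, 20 had an interaction above 0, with a median of 0.40, and none was called. The median was 0.32 without both set-apart libraries, 0.23 without K556R refed 1_b1 alone and 0.12 without the set-apart and the 1_b2 fasted libraries. Of the 21 genes, 11 rose in wild type and 15 in K556R, against 20.9% and 19.6% of all genes. Ifi27l2a had 0.72 (SE 0.30), Ifit1 0.64 (SE 0.28), Rtp4 0.44 (SE 0.20) and Ifit3 0.46 (SE 0.24).

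Markers of macrophages and of dividing cells were high in single libraries, and in bulk liver fewer cells of a type and less RNA per cell cannot be told apart. The summed level of 11 Kupffer cell and macrophage markers, none at 0 in any library, was 106, 304, 107, 53.6 and 135 CPM in wild type fasted and 86.9, 115, 97.9, 116 and 142 CPM in wild type refed. In K556R it was 134, 131, 118, 108 and 102 CPM fasted and 236, 114, 101, 138 and 137 CPM refed. All 11 interactions were above 0, with a median of 0.61, which was 0.05 without wild type fasted 2_b1 and 0.36 without the set-apart libraries. Marco, a scavenger receptor, had 2.35 (SE 1.13), Emr1, which encodes F4/80, 1.00 (SE 0.58), Cd68 0.63 (SE 0.37) and Timd4 0.78 (SE 0.57); without wild type fasted 2_b1 Marco had 0.34, Cd68 0.32 and Timd4 0.11. Lymphocyte markers summed to 17.0 CPM in K556R fasted 1_b1 and 22.9 CPM in K556R refed 1_b1, against 3.59 to 11.2 CPM in the other 18 libraries. That sum leaned on Ptprc, with a median of 3.76 CPM and a maximum of 12.1 CPM over all libraries. The T cell genes Cd3e and Cd3d had medians of 0.12 and 0.10 CPM. The part of macrophages and lymphocytes in the interferon, Mx2 and Irf5 values was not tested.

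Proliferation genes had a median interaction of 0.67, with 18 of 19 above 0 and none called. Their summed level was 283 CPM in K556R refed 1_b1 and 106 to 133 CPM in the other 19 libraries. Without that library the median was −0.20, and without both set-apart libraries 0.04. Mcm6 and Mcm2 of the replication helicase had 1.19 (SE 0.68) and 0.92 (SE 0.62), the topoisomerase gene Top2a 1.27 (SE 0.79) and the cyclin gene Ccna2 0.85 (SE 0.56). The 7 hepatocyte markers were all below 0, with a median of −0.14.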

How the data were processed

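The authors deposited 1 table of raw counts for 20 samples, without normalization. The tools named in the submitters' processing notes are HTSeq, STAR, STAR-Fusion, TopHat, edgeR and DESeq2, with build mm10; the tool that counted reads, its version, its annotation and its use of strand are not stated there, so overlapping antisense genes cannot be told apart. Poly-A RNA was sequenced, per the labels' protocols. All columns matched a sample.

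Counts were fitted with edgeR 4.0.16 (R 4.3.3; filterByExpr with a minimum count of 10 and total of 15, TMM, robust quasi-likelihood) in 1 model of all 20 samples with group and batch, with Benjamini-Hochberg adjustment over all 13894 genes tested, threshold 0.05. Fold changes are fitted log2 values adjusted for batch, and CPM levels are not adjusted. DESeq2 1.42.0, limma 3.58.1, other scalings, filters, batch treatments, a replicate block and leaving out libraries were alternatives. The fit was tried on simulated counts. Positions are from GENCODE M21 on GRCm38, and promoters were found for 14 of 20 leading genes.

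The genes and lists were chosen with earlier results of these data known, so no list has a test. Named were the 10 genes with the lowest interaction p in each direction (mean of at least 1 log2 CPM), the 8 largest mean refeeding rises and falls (called, mean of at least 3 log2 CPM), up to 4 members of each list with the lowest p, and Prox1, Pck1, Srebf1, Igfbp1, Fasn and Cyp7a1; clone, model and pseudogene names were left out, and some genes that the rule names are not reported here. Batch 1 without the set-apart libraries was added after the data were seen.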

Additional observations from a re-analysis of the deposited data

Results flagged for a closer look

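Of 136 groups of 5 libraries checked for the levels given above (34 genes or lists in 4 groups), 18 had a library far from the other 4, with a gap over the range above 0.71; chance alone flags about 1 in 20 groups. K556R refed 1_b1 accounted for 6 of them. It was highest of its group for proliferation genes (283 CPM summed, the others 113 to 119), Kupffer cell and macrophage markers (236 CPM), lymphocyte markers (22.9 CPM), Cyp7a1 (309.6 CPM) and Htatip2 (37.9 CPM), and lowest for Khk (209.7 CPM, the others 429.7 to 487). K556R fasted 1_b1 was highest for lymphocyte markers (17.0 CPM) and lowest for Lyn (19.6 CPM).

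The batch 2 libraries of the fasted groups stood apart for lipogenic genes. Fatty acid synthesis genes summed to 15734 CPM in wild type fasted 1_b2 and 19836 CPM in K556R fasted 1_b2. Most of each sum was Scd1, a member of that list, at 11792 and 16916 CPM in the same libraries. The flags for the list and for Scd1 are therefore not independent. Wild type fasted 1_b2 was also highest for Cyp7a1 (114 CPM), and K556R fasted 1_b2 for Dak (557 CPM). Wild type refed 1_b2 was highest for Thrsp (1889.5 CPM) and lymphocyte markers (11.2 CPM) and lowest for Zfp236 (22.5 CPM). The remaining value was that of Hdac11 in wild type refed 2_b1 (44.4 CPM).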

How the results depend on the processing

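The count of genes called in the interaction was 0 in the fits with RLE and upper-quartile scaling, limma, no filter, CPM of at least 1 in 5 samples, no batch term, batch 1 alone (with and without the set-apart libraries), no robust estimates, without the 2 or 4 doubted libraries, and without each of the 20 libraries in turn. It was 1 with DESeq2 and 21 in batch 2 alone (among them Plin5, at −1.43), where only K556R refed had more than 1 library. Counts of the refeeding response were 5631 to 6606 in wild type and 4979 to 5631 in K556R when 1 library was left out, and 1144 and 2702 in batch 2 alone. The K556R count was 3549 in batch 1 without the set-apart libraries, where 12 libraries were left and the 1 of K556R refed is assumed to vary like the other groups. The replicate block gave 0 interaction calls, 5929 wild-type and 4511 K556R refeeding calls. It thus made no call in the interaction and moved the refeeding counts by less than 1.5 times. Same-numbered samples deviated together with r = −0.371 to 0.65 over 24 pairs (median −0.0555), 4 of them over 0.1. The pair at 0.65 was K556R fasted 1_b1 and K556R refed 1_b1, the set-apart libraries. Group and batch means were removed first from small groups, so these values cannot decide whether the numbers pair samples.

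All reversed values below belong to genes that were not called. In batch 2 alone the interaction was 0.143 for Acaca, 0.746 for Aqp8, −1.73 for Btbd19, 0.385 for Chrna4, 0.536 for Cyp7a1, 0.158 for Fdps, −0.0706 for Foxo1, 0.0328 for Hsd17b7 and −1.04 for Igfbp1. In the same batch it was −0.109 for Irs1, −0.14 for Irs2, −0.133 for Klf15, 0.0873 for Mid1ip1, 0.0269 for Mlxipl, 0.555 for Mvd, −0.0816 for Pck1, −1.14 for Plin4, 0.11 for Pltp, 0.356 for Sqle and −0.033 for Top2a. In batch 1 alone it was 0.00132 for Fbp1, 0.00247 for Mt2, −0.189 for Plin4 and −0.144 for Srebf1. In batch 1 without the set-apart libraries it was −0.123 for Abcg5, 0.106 for Aqp8, −0.162 for Ccna2, −0.053 for Dbp, −0.163 for Mcm2, −0.0975 for Mcm6, 0.0204 for Mlxipl, −0.0565 for Pck1, 0.068 for Plin5 and −0.119 for Prox1. Without the 2 set-apart libraries it was 0.121 for Gadd45g, and without these and the 1_b2 fasted libraries −0.0475 for Abcg5, 0.238 for Aqp8, −0.0956 for Ccna2, 0.0391 for Mvd, −0.0609 for Prox1 and −0.00135 for Top2a. limma gave 0.523 for Gadd45g, 0.0466 for Mlxipl and 0.0336 for Mt1, the fit without a batch term 0.0594 for Mlxipl, and the replicate block 0.0721 for Mlxipl, −0.112 for Plin4 and −0.0629 for Srebf1.

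With 1 library left out, values ran from −0.0215 to 1.21 for Ccna2, −0.762 to 0.164 for Cyp7a1, −0.29 to 0.51 for Gadd45g, −0.137 to 1.21 for Mcm2, −0.0908 to 1.47 for Mcm6 and −0.191 to 0.062 for Mlxipl. They ran from −0.139 to 0.445 for Plin4, −1.08 to 0.00567 for Rgs16, −0.118 to 0.212 for Srebf1 and −0.284 to 1.74 for Top2a. The values below 0 for Ccna2, Mcm2, Mcm6 and Top2a, and the value above 0 for Rgs16, were those without K556R refed 1_b1. The causes of these shifts were not tested. Of 92 named genes, none of them called by edgeR, 54 had a value that moved by over 1.5 times without some single library. Of these, 31 did so without K556R refed 1_b1, 26 of them towards or past 0. Median list values that moved and are not given above were the bile acid (0.35), gluconeogenesis (−0.28) and female-biased (−1.69) medians in batch 2 alone and the lipoprotein medians of 0.06 and 0.08 without 4 libraries and in batch 1 without the set-apart ones. The proliferation median was 0.09 with limma, 0.013 in batch 2 alone, −0.006 without 4 libraries and −0.098 in batch 1 without the set-apart ones.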

Other observations

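Other gene groups had median interactions near 0, and edgeR called no member in the fit of all 20 libraries. The unfolded protein response, which refolds and clears proteins in the endoplasmic reticulum, had a median of 0.08 over 20 genes. Of these, 13 rose on refeeding in wild type and 15 in K556R, against 20.9% and 19.6% of all genes. Medians were −0.03 for 17 genes of the integrated stress response, −0.06 for 15 NRF2 targets, 0.13 for 10 heat shock genes, 0.05 for 20 ribosome biogenesis genes and 0.05 for 18 acute phase proteins. Amino acid catabolism and urea cycle genes, 28 in all, had a median of −0.01. On refeeding 11 fell in wild type and 9 in K556R, against 24.2% and 20.3% of all genes. Hepatocyte transcription factor genes (14) had −0.07, glycogen metabolism genes (14) 0.03 and Hippo pathway genes (12) 0.0025.

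The median interaction of 14 glucocorticoid and cAMP response genes was 0.02. On refeeding 12 of them fell in wild type and 8 in K556R, against 24.2% and 20.3% of all genes. The difference between these counts was not tested as a difference. Sinusoidal endothelial markers had a median of 0.02 (10 genes) and stellate cell markers −0.05 (13 genes).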
